A study of Rattus norvegicus with 21 samples.

Results

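The comparison set 3 rats that went through chronic stress and received agomelatine against 3 untreated rats, in RNA from the dentate gyrus. Of the study's 21 arrays from 18 animals, 9 arrays from 6 animals belong to it, chosen by their titles: 1 array for each agomelatine animal, and a first and a repeat array for each control animal, which were averaged. All animals were wild-type male Wistar rats aged 2 months per the labels. The agomelatine group had 6 weeks of unpredictable chronic mild stress, with agomelatine at 40 mg/kg, in hydroxyethylcellulose, injected intraperitoneally each day of the last 2 weeks. The control group had neither stress nor drug. The groups therefore differ in stress and drug at once, and possibly in vehicle and injection, and these cannot be told apart here. Injections are described for drug-treated animals, and whether control animals were injected is not said. The other 12 animals, 3 each with stress alone or with stress and fluoxetine, imipramine or tianeptine at 10 mg/kg, share in the estimate of spread and are used to show where the agomelatine animals stand. Nothing in the labels says that the numbered animals of different groups are linked.

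The dentate gyrus is the part of the hippocampus whose densely packed granule neurons receive the main cortical input and send mossy fibres, rich in zinc, to field CA3. New granule neurons are added there in adult life, and the layer is bordered by mossy cells and interneurons of the hilus and by myelinated axons of the surrounding tracts. Agomelatine is an antidepressant that activates the melatonin receptors and blocks the serotonin receptor encoded by Htr2c. Corticosteroid receptors are abundant in granule neurons, so genes induced by glucocorticoids are commonly read beside stress.

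The promoters of 3 genes are shown because each gene had the smallest adjusted p, among members with a RefSeq promoter, of the list of myelin, granule neuron or glucocorticoid-responsive genes described below. Each is the 250 bases before the gene's start in RefSeq's assembly GRCr8, written 5′ to 3′ on the gene's strand. Opalin, a membrane protein gene of mature oligodendrocytes, has this window at chr1:249858191-249858440 on the minus strand. C1ql2, a synaptic organiser gene of mossy fibres, has it at chr13:34023652-34023901 on the plus strand. Sgk1, a kinase gene induced by serum and glucocorticoids, has it at chr1:24807232-24807481 on the minus strand. Capitals mark matches on either strand to any of 4 motif families that were searched. The families were the Sox letters ACAAAG or ACAATG, the E-box letters CAGATG or CAGCTG, the glucocorticoid response letters AGAACA and the cyclic AMP response letters TGACG.
Opalin: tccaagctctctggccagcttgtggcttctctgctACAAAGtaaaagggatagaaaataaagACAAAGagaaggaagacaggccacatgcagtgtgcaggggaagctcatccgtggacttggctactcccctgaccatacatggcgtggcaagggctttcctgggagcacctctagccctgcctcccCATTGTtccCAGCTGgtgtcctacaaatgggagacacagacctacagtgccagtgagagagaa
C1ql2: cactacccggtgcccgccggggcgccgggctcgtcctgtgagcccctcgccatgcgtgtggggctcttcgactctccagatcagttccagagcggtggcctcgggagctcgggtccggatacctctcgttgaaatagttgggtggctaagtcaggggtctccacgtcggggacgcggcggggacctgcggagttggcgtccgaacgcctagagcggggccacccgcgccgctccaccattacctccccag
Sgk1: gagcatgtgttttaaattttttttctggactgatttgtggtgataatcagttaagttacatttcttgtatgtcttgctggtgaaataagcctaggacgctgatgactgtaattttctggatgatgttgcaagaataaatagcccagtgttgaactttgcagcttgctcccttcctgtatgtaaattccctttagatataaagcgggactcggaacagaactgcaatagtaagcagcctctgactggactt

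The Opalin window held 3 Sox matches and 1 E-box match, and the other two windows held no match to any family. All 4 families were searched in 3 lists, and every share is given. The Sox letters were in 6 of 16 myelin promoters, 1 of 9 granule neuron promoters and 0 of 17 glucocorticoid-responsive promoters, against 24.8% of all 27457 promoters and 16.7% of the 8947 promoters of tested genes. The E-box letters were in 6, 2 and 0 of them, against 24.0% and 21.3%. The glucocorticoid response letters were in 2, 0 and 1, against 17.1% and 10.7%. The cyclic AMP response letters were in 3, 3 and 7, against 19.0% and 27.3%. No test was made of these shares, and a match describes letters in a window, not a site.

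Values are log2 RMA values, in which 1 unit is a 2-fold difference, and every difference below is agomelatine minus control, with its standard error, unless another pair is named. A gene is said to have risen or fallen at an adjusted p under 0.05 from limma, adjusted by the Benjamini-Hochberg method over 10804 genes. The granule neuron markers Prox1 and C1ql2 had mean control values of 11.70 and 11.92 in this tissue labelled as dentate gyrus, and the choroid plexus marker Ttr lay at 7.14 to 7.66 in the control animals. The 3 agomelatine animals were less alike than animals of other groups, the median gene having an SD of 0.114 among them and of 0.0631 to 0.0852 in the other groups. Agomelatine 1 stood apart by its choroid plexus genes, with Ttr at 14.01 against 7.58 and 7.29 in agomelatine 2 and 3. The repeat control arrays differed from the first ones in a shared direction. On a scale where the first control arrays average 0 and the repeat arrays average 1, the agomelatine arrays lay at 0.62, 0.823 and 0.832 and the other 12 animals between -0.145 and 0.406. limma called 0 genes between repeat and first arrays, with 2327 at an unadjusted p under 0.05. The part of these array differences in the results was not tested beyond fits with the array difference as a covariate. All 3 agomelatine arrays lay above the other 12 animals on this scale. Such fits therefore cannot separate array effects from effects of the agomelatine group. Values against first and repeat arrays are given for some genes only. Of 131 called genes chosen by the naming rule below, 6 lost the call against first arrays alone and 31 against repeat arrays alone. Without control 2, 72 of the 131 lost it, and without agomelatine 1, 49 did. In a fit of the agomelatine and control animals alone, 60 did.

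In all, 1036 of 10804 genes (9.59%) were called, 570 higher (5.28%) and 466 lower (4.31%), with 2746 at an unadjusted p under 0.05. The median of all differences was -0.01. In the group means, rises were larger than falls: 102 genes rose by over 0.5 and 11 by over 1, while 23 fell by more than 0.5 and 0 by more than 1. Over the genes called higher, the median distance from the control mean was 0.406, 0.316 and 0.283 in agomelatine 1 to 3. Over the genes called lower it was -0.309, -0.286 and -0.286. Of the called genes, 608 had all 3 agomelatine animals beyond all 15 other animals, 321 above and 287 below, where this held for 8.64% of all tested genes, 3.80% above and 4.84% below. Animals did not overlap between the groups in 2778 genes (25.7%), of which 1002 were called. Single animals and arrays moved the counts. Against the first control arrays alone 843 genes rose and 1021 fell (17.3% called), and against the repeat arrays alone 444 rose and 226 fell (6.20% called). Called genes that were also called with each array set alone numbered 511, 331 higher and 180 lower. Without control 2 the counts were 193 and 85, without control 1 they were 303 and 258, and without agomelatine 1 they were 266 (2.46%) and 257 (2.38%). In the fit of the 6 animals alone 215 rose and 107 fell, and 316 of the 1036 calls were kept. Called genes that stayed called without each of the 6 animals in turn numbered 251, 174 higher and 77 lower.

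**Figure D1:**
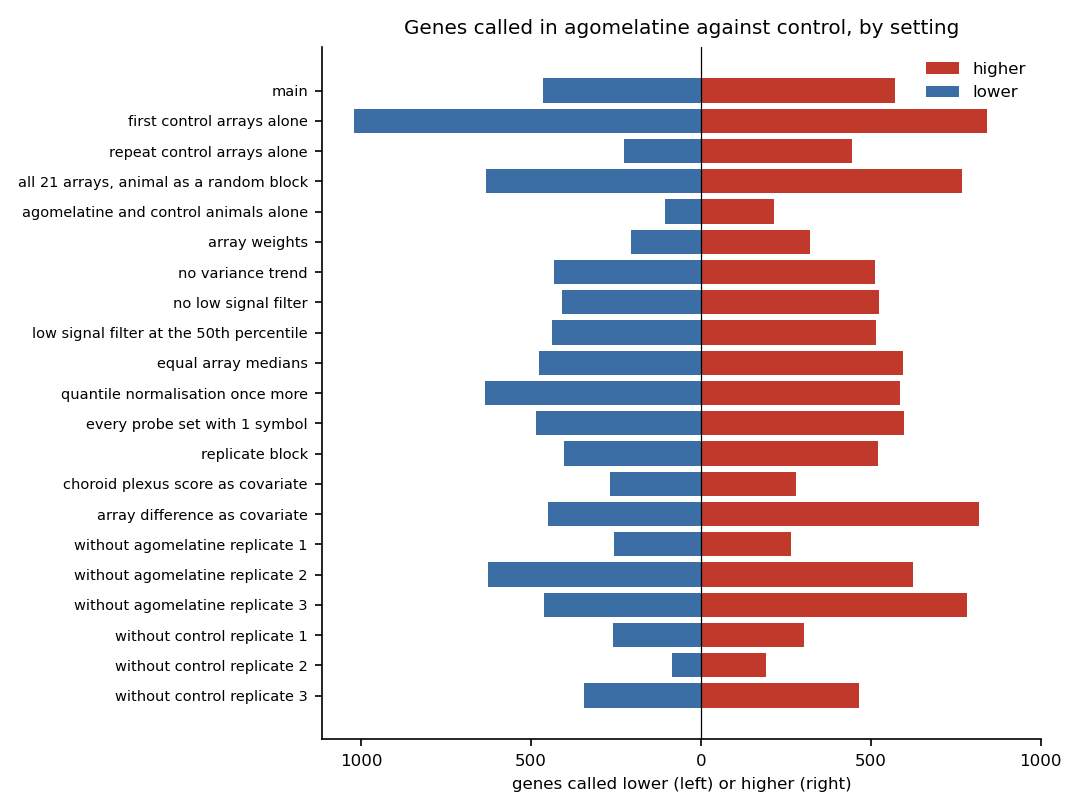
Number of genes called lower (bars to the left) or higher (bars to the right) in agomelatine against control, for the reported fit (main) and each alternative. The count without control replicate 2 is the lowest, at 193 higher and 85 lower, and the fall count against first control arrays alone is the highest, at 1021.

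Genes of mature granule neurons were lower. All 11 tested members lay below 0, 6 fell and none rose, with a median difference of -0.27 against -0.01 for all genes. C1ql2 was 11.22, 11.16 and 11.27 in agomelatine 1 to 3 and 11.83, 12.06 and 11.87 in control 1 to 3. The groups did not overlap, and all 3 agomelatine animals lay below all 15 other animals. The difference was -0.70 ± 0.07 (limma adjusted p = 1.91e-05). Prox1, the transcription factor that specifies granule neurons, was 11.05, 11.26 and 11.49 against 11.68, 11.84 and 11.59, a difference of -0.44 ± 0.09 (limma adjusted p = 0.00547). Agomelatine 3 was the nearest to the controls. Smad3, a transducer of TGF-beta signals, fell by 0.42, Fam163b by 0.40, C1ql3, another synaptic organiser of the C1q family, by 0.29, and Ahcyl2 by 0.27. Calb1, which encodes the calcium-binding protein calbindin, differed by -0.22 and did not pass the test (limma adjusted p = 0.0957). Without agomelatine 1, 4 members fell, and without control 2, 3 did. In bulk tissue, fewer cells of a type and less RNA per cell cannot be told apart.

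The 15 lowest differences among called genes without overlap, apart from C1ql2, were the following, with Penk added from a list. Slc30a3, which loads zinc into the vesicles of mossy fibres, was 10.58, 10.66 and 10.72 against 11.35, 11.33 and 11.22. All 3 agomelatine animals lay below all 15 others, and the difference was -0.65 ± 0.07 (limma adjusted p = 1.91e-05). Pdyn, the prodynorphin gene, was 9.57, 9.72 and 9.35 against 10.22, 10.31 and 10.02, a difference of -0.64 ± 0.12. Penk, the proenkephalin gene, which is in the list of thalamus and striatum genes, fell by 0.58, from a mean of 10.51 to 9.92, where stress alone had 10.72. The largest fall was that of Nhlh1, a neuronal helix-loop-helix factor, at 9.24, 9.48 and 9.89 against 10.18, 10.91 and 10.40. Its difference was -0.96 ± 0.16 (limma adjusted p = 0.00169), with no overlap. Rasl10a, a Ras-like GTPase gene, fell by 0.78 (limma adjusted p = 1.88e-05). Others among the 15 lowest were the ephrin receptor Epha8 (-0.68), the contactin-associated protein Cntnap5b (-0.69), the lysosomal thioesterase Ppt2 (-0.68), the complement regulator Cd55 (-0.68), the PP2A activator Ptpa (-0.67), the transporter Slc4a11 (-0.66), the palmitoyltransferase Zdhhc22 (-0.65), fibrillin gene Fbn1 (-0.64), Plppr1 (-0.63) and the integrin Itga11 (-0.62).

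**Figure D2:**
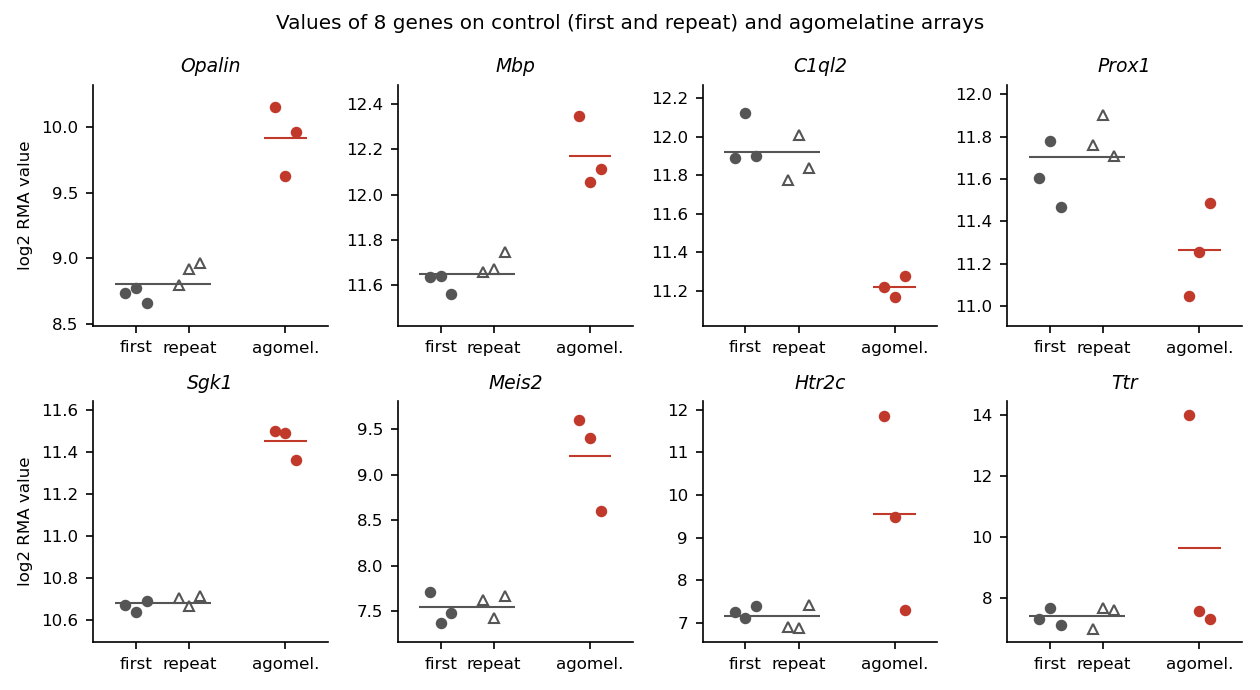
Log2 RMA values of 8 genes on the first (filled grey circles) and repeat (open triangles) arrays of the 3 control animals and on the arrays of the 3 agomelatine animals (red), with lines at the group means. Opalin, Mbp, Sgk1 and Meis2 lie higher and C1ql2 and Prox1 lower in agomelatine animals than on the control arrays, while Htr2c and Ttr are highest in agomelatine 1, at 11.86 and 14.01.

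Myelin genes rose together. Of 22 tested members 18 rose and none fell, with a median difference of 0.54 against -0.01 for all genes, and 17 had all 3 agomelatine animals above all 15 others. Opalin was 10.15, 9.63 and 9.96 in the agomelatine animals and 8.76, 8.85 and 8.81 in the controls. Its difference of 1.11 ± 0.11 (limma adjusted p = 1.88e-05) was 1.19 against first and 1.02 against repeat arrays. Ermn, a cytoskeletal gene of myelinating cells, was 11.02, 10.46 and 10.47 against 9.83, 9.92 and 9.90, a difference of 0.77 ± 0.10. Mog, a myelin surface glycoprotein gene, rose by 0.61. Mbp, the myelin basic protein gene, was 12.35, 12.05 and 12.11 against 11.64, 11.65 and 11.65, a difference of 0.52 ± 0.08 (limma adjusted p = 0.00105). These values are from the brighter of its probe sets, and the other differed by -0.05 and was not called (limma adjusted p = 0.703). Agomelatine 1 was the highest of the 3 in Opalin, Ermn, Mog and Mbp. Plekhh1, another member, rose by 0.52. The members that did not pass the test were Gsn (0.49), Ppp1r14a (0.21), Cryab (0.18) and Ndrg1 (-0.08). Enpp2, the autotaxin gene, is in the choroid plexus list as well, and without it 17 of 21 rose. Without agomelatine 1 the count was 18 and the median 0.44, and leaving out any 1 of the 6 animals gave 16 to 19.

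Of precursor and lineage genes of oligodendrocytes 3 of 11 rose and none fell, with a median of 0.19. Bcas1, a gene of newly myelinating cells, was 10.43, 9.97 and 10.29 against 9.66, 9.68 and 9.80, a difference of 0.52 ± 0.10. Olig1, a lineage transcription factor, rose by 0.45 and Sox10, a regulator of myelin genes, by 0.22. Pdgfra, the growth factor receptor of precursors, differed by 0.33 without passing the test (limma adjusted p = 0.0735).

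**Figure D3:**
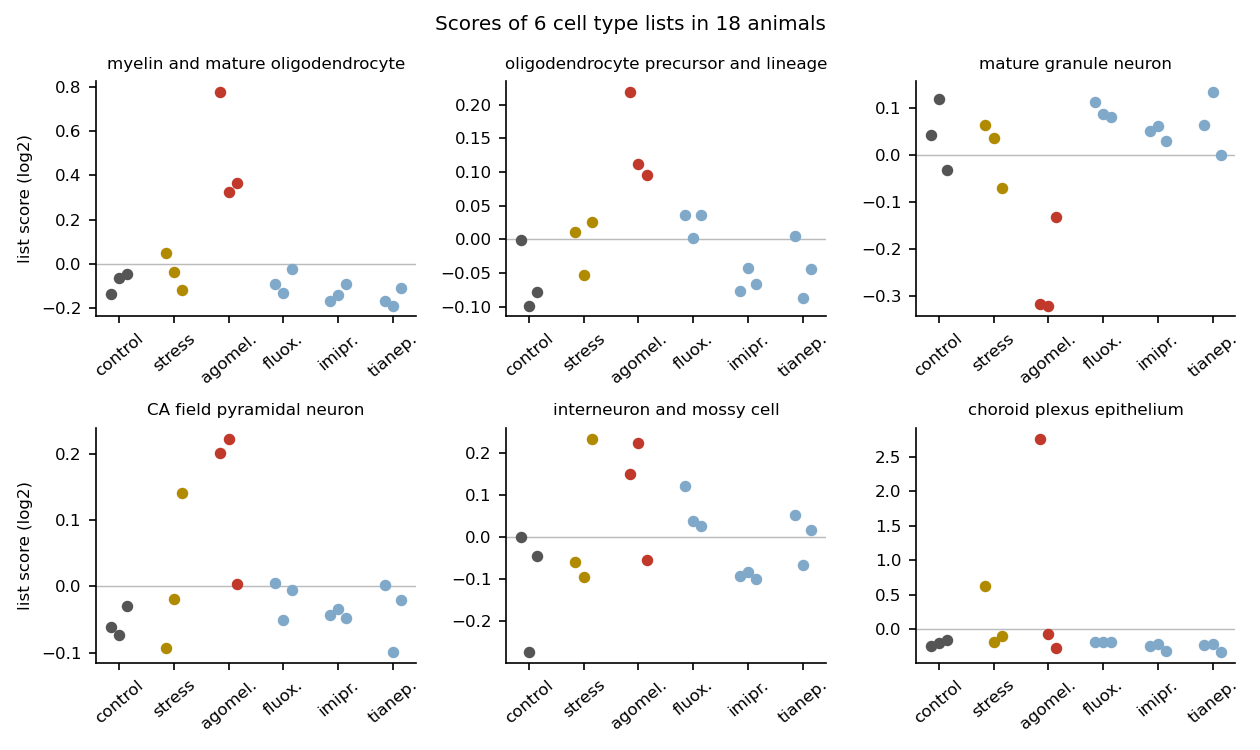
Score of 6 cell type lists in each of the 18 animals, each dot being 1 animal. A score averages the members after each gene was centred on its mean across the 18 animals. The myelin scores of the agomelatine animals are 0.78, 0.33 and 0.37 and all 15 others are at or below 0.05, while the choroid plexus score is 2.76 in agomelatine 1 and at most 0.63 in any other animal.

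Among neurons outside the granule layer, 2 of 14 genes of the CA fields rose and none fell, against 5.28% and 4.31% of all tested genes. Man1a1, a mannosidase gene, was 8.46, 8.10 and 8.24 against 7.16, 7.37 and 7.55, a difference of 0.90 ± 0.13 (limma adjusted p = 0.000654). Wfs1, which encodes wolframin and marks field CA1, was 10.78, 11.10 and 9.93 against 9.86, 9.72 and 9.76. Its difference was 0.82 ± 0.20 (limma adjusted p = 0.0173), and agomelatine 3 stood close to the controls. The list score was 0.20, 0.22 and 0.00 in agomelatine 1 to 3 and -0.06, -0.07 and -0.03 in control 1 to 3. Of 15 interneuron and mossy cell genes 4 rose and none fell: Cck (0.70), a neuropeptide gene, Calb2 (0.55), the calretinin gene, Cnr1 (0.53), the cannabinoid receptor, and Gad2 (0.34), a GABA-synthesising enzyme. Cck overlapped between the groups, at 11.13, 11.12 and 10.42 against 10.50, 9.71 and 10.36. Control 2 was the lowest control in Cck and Cnr1, and without control 2, 1 of the 15 rose, as without agomelatine 2. Of the CA genes 1 rose without agomelatine 1, agomelatine 2 or control 2, and 4 without agomelatine 3. The part that tissue from neighbouring fields could have in these differences was not tested.

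The 15 highest differences among called genes without overlap, which leave out Htr2c, included 10 that none of the gene lists holds. Meis2, a homeobox transcription factor, was 9.60, 9.41 and 8.60 against 7.67, 7.40 and 7.58. No animal of any other group reached the agomelatine animals, and the difference was 1.66 ± 0.20 (limma adjusted p = 0.000125). Neurod6, a helix-loop-helix factor of pyramidal neurons, was 11.81, 11.72 and 11.68 against 10.21, 10.57 and 11.09, a difference of 1.11 ± 0.19. The controls spread more widely than the agomelatine animals. Tekt5, a tektin, rose by 1.06, Lpl, the lipoprotein lipase, by 1.01, Rasl11b by 0.96, Trhde, which degrades thyrotropin-releasing hormone, by 0.95, and Itgbl1 by 0.93. Ccn3, a matricellular protein gene (1.33), Plcxd3 (1.11) and Cdr2 (0.94) were called but lost the call without agomelatine 1, as they did without control 2. Without agomelatine 1 their differences were 1.29, 0.97 and 0.43. When single animals were left out, Ccn3 kept its call only without agomelatine 3, and Cdr2 lost its call also without control 1 or control 3. Of the 30 genes with the highest and lowest differences, 22 stayed called without each animal in turn and 29 were called with first and with repeat arrays alone, Enpp2 being the exception.

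**Figure D4:**
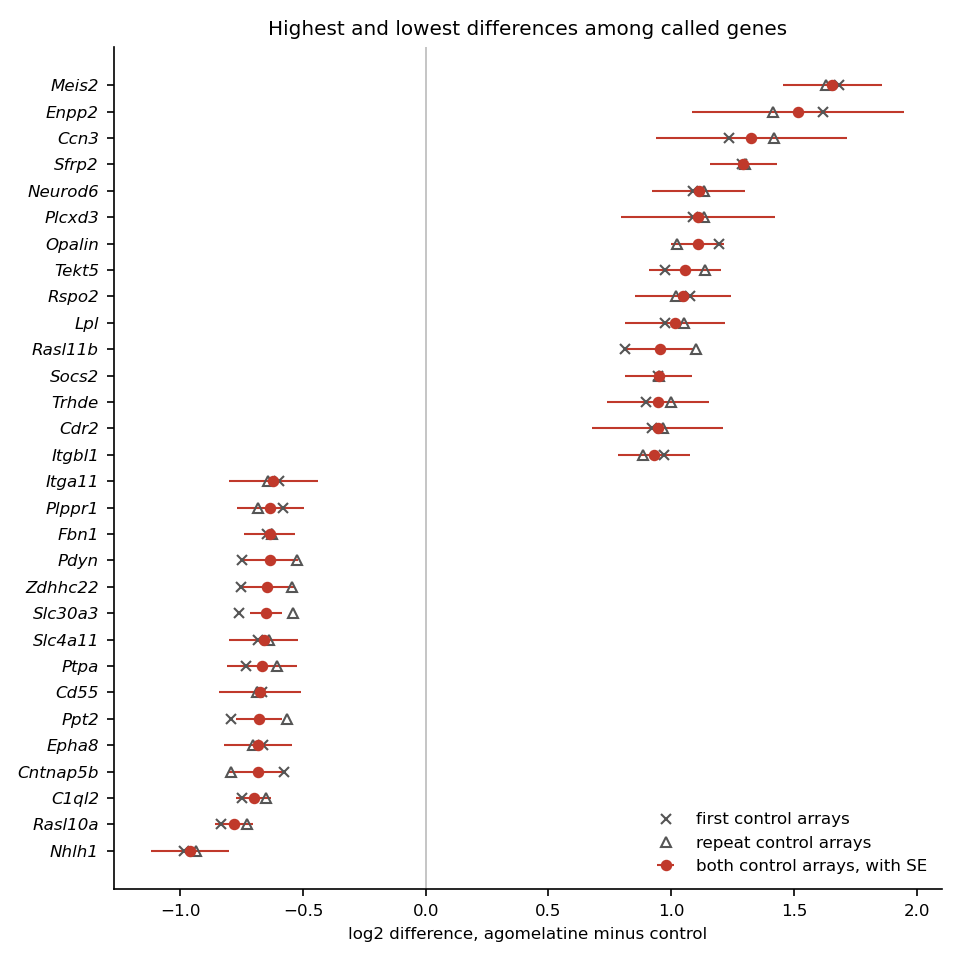
Log2 difference between agomelatine and control for the 15 highest and 15 lowest called genes whose animals do not overlap, with both control arrays averaged (red, bars are the standard error) and against first (crosses) or repeat (triangles) control arrays alone. The differences run from -0.96 for Nhlh1 to 1.66 for Meis2 and keep their sign with either array.

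Markers of other cell types were set beside these results, where over all tested genes 5.28% rose and 4.31% fell. Choroid plexus genes had a median difference of 0.81 over 9 tested members, with 1 risen, and that median came to -0.03 without agomelatine 1. The score was 2.76 in agomelatine 1 and -0.08 and -0.27 in agomelatine 2 and 3, against -0.25 to -0.16 in controls. Kl, the klotho gene, was 10.81 in agomelatine 1 and 6.82 and 6.88 in the other two. Enpp2 was 13.31, 10.62 and 10.68 against 9.92, 10.05 and 10.09, a difference of 1.52 ± 0.43 (limma adjusted p = 0.0342) that was 0.63 without agomelatine 1. Its call was lost without any 1 of the 3 controls. Without agomelatine 3, 5 choroid plexus and 2 meningeal genes rose. Of 10 genes of meninges and fibroblasts none was called, and Dcn, the decorin gene, was 11.15, 10.21 and 9.07 against 9.29, 8.85 and 9.26. The part of choroid plexus tissue in the other results was not tested beyond these values and fits with its score as a covariate. With that covariate the 570 higher and 466 lower genes became 280 and 268. The part of meningeal tissue was not tested. None of 14 microglial or 16 endothelial genes was called, though 2 endothelial genes fell without agomelatine 2 and 1 rose without agomelatine 3. Of 12 astrocyte genes 2 fell: Ntsr2, a neurotensin receptor, by 0.35 and Slc4a4, a bicarbonate transporter, by 0.20, and without control 2 neither was called. Gfap, the astrocyte filament gene, differed by 0.07 (limma adjusted p = 0.78). Genes of thalamus and striatum had 1 of 10 risen and 1 fallen, which were Calb2 and Penk. Calb2 lost its call without agomelatine 2 and without control 2, and without agomelatine 2, 2 of the 10 fell.

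Immature neuron genes gave 2 rises and 1 fall in 13, where over all tested genes 5.28% rose and 4.31% fell. Elavl4, a neuronal RNA-binding protein gene, rose by 0.41 together with Calb2, and Neurod1, which drives granule neuron differentiation, fell by 0.28. Dcx, the doublecortin gene of young neurons, was 9.70, 9.44 and 9.44 against 9.24, 9.07 and 9.15. The groups did not overlap, but the difference of 0.37 ± 0.13 did not pass the test (limma adjusted p = 0.0809). Without control 2 none of the 13 was called, and without agomelatine 1, agomelatine 2 or control 1 none fell.

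The receptors on which agomelatine acts were examined next. The melatonin receptor genes Mtnr1a and Mtnr1b were not among the genes tested. Htr2c was 11.86, 9.48 and 7.31 in agomelatine 1 to 3 and 7.08, 7.01 and 7.41 in control 1 to 3. Agomelatine 3 lay within the control range. The difference of 2.38 ± 0.73 was the largest of all genes and just passed the test (limma adjusted p = 0.047), and without agomelatine 1 it was 1.23 and did not (limma adjusted p = 0.2). As background, choroid plexus epithelium is rich in this receptor. The choroid plexus score was 2.76 in agomelatine 1, -0.08 in agomelatine 2 and -0.27 in agomelatine 3. The part of choroid plexus tissue in the Htr2c difference was not tested beyond fits with that score as a covariate. The stressed group had a mean Htr2c value of 8.32 ± 1.42 (SD, n = 3). Of 16 genes of the serotonin and melatonin system 4 rose and 2 fell, where over all tested genes 5.28% rose and 4.31% fell. Htr1b, an inhibitory receptor of axon terminals, was 9.67, 9.50 and 8.78 against 8.58, 8.31 and 8.46, a difference of 0.87 ± 0.21. Htr1f, a related receptor, rose by 0.61 and Maoa, which degrades serotonin, by 0.30. Htr1a, the main inhibitory serotonin receptor of granule neurons, fell by 0.39, and Htr4, an excitatory receptor coupled to cyclic AMP, fell by 0.33. Htr1a overlapped between groups, since agomelatine 3 was at 11.22 and control 1 at 11.19. Without agomelatine 1, 1 of the 16 rose and 1 fell, and without control 2, 1 rose and none fell.

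Of 17 circadian clock genes 1 fell and none rose, where over all tested genes 4.31% fell and 5.28% rose. Nr1d1, a repressor driven by the clock's core activators, was 10.46, 10.42 and 10.55 against 10.90, 11.01 and 10.81, a difference of -0.43 ± 0.11 (limma adjusted p = 0.0195). It was -0.51 against first and -0.35 against repeat arrays, and only the former passed the test. The call was lost without agomelatine 1, without control 1 and without control 2, and without agomelatine 3, 3 clock genes fell. Tef (-0.25), Dbp (-0.20) and Per3 (-0.20), outputs and a repressor of the same clock, lay below 0 without passing it. The labels do not name the hour of tissue collection.

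Some stress and steroid genes were called, where over all tested genes 5.28% rose and 4.31% fell. Sgk1 was 11.50, 11.49 and 11.36 against 10.69, 10.65 and 10.70, with all 3 agomelatine animals above all 15 others. Its difference of 0.77 ± 0.07 had the smallest adjusted p of all genes (limma adjusted p = 6.05e-06). As background, oligodendrocytes as well as neurons express Sgk1. Of 19 glucocorticoid-responsive genes 3 rose and 1 fell. Pdk4, a kinase that restrains pyruvate oxidation, rose by 0.40 and Nfkbia, an inhibitor of NF-kB, by 0.38, while Zbtb16, a zinc finger gene induced by glucocorticoids, fell by 0.34. Fkbp5, the receptor's co-chaperone and a sensitive target, was 9.85, 9.75 and 9.65 against 9.79, 9.86 and 9.91, and overlapped (-0.10 ± 0.12, limma adjusted p = 0.658). The receptor genes Nr3c1 (-0.00 ± 0.06) and Nr3c2 (-0.02 ± 0.06) showed no call. Of 11 genes of the corticosteroid, CRH, vasopressin and oxytocin system 2 rose, Crhbp, which binds and buffers CRH, by 0.54, and Hsp90aa1, the receptor's chaperone, by 0.31. Without control 2, 1 of the 11 rose and none of the 19 glucocorticoid-responsive genes fell. Without agomelatine 3, 5 of the 19 rose, and without control 3, 2 fell.

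Some activity-regulated genes rose, where over all tested genes 5.28% rose and 4.31% fell. Of 21 transcription factors 3 rose and none fell, with 10 members above and 11 below 0 and a median of -0.01. Nr4a1, an orphan nuclear receptor, was 8.68, 8.82 and 8.81 against 8.22, 8.09 and 8.14, a difference of 0.62 ± 0.13. Nr4a2 rose by 0.57, and Npas4, which neuronal calcium entry induces, by 0.40 (limma adjusted p = 0.0479). Fos differed by 0.06 (limma adjusted p = 0.722). Of 30 effectors 4 rose and none fell: Dusp5 (0.75) and Dusp6 (0.41), phosphatases of ERK kinases, Homer1 (0.48), a postsynaptic scaffold, and Ifrd1 (0.39). Dusp5 was 8.72, 9.20 and 9.15 against 8.24, 8.24 and 8.34, with no overlap with any other group. Arc, a plasticity gene, differed by 0.37 (limma adjusted p = 0.106) and Bdnf, a neurotrophin gene, by 0.09 (limma adjusted p = 0.67). Among 23 neurotrophin and growth factor genes 2 rose, Erbb4, a neuregulin receptor, by 0.50 and Tgfa, an EGF receptor ligand, by 0.40. Without control 1, 1 of the transcription factors rose, and without control 2, 2 of the effectors did. Of the growth factor genes 1 rose without agomelatine 1 or control 2, and 4 rose and 2 fell without agomelatine 3.

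Of 32 Wnt pathway genes 4 rose and 2 fell, where over all tested genes 5.28% rose and 4.31% fell. Their median difference was -0.01, as it was for all genes. Sfrp2, a secreted Wnt antagonist, was 9.17, 9.10 and 9.55 against 8.19, 7.74 and 8.0. All 3 agomelatine animals were above all 15 others, and the difference of 1.29 ± 0.14 (limma adjusted p = 2.58e-05) was 1.29 against first and 1.30 against repeat arrays. Rspo2, a secreted enhancer of Wnt signals, was 10.39, 10.98 and 10.66 against 9.94, 9.44 and 9.50, a difference of 1.05 ± 0.20. Its stress group mean was 10.21, between both. Nkd1, an intracellular inhibitor, rose by 0.41 and the ligand Wnt2 by 0.39, while Rspo3, a second enhancer, fell by 0.48 and the ligand Wnt4 by 0.36. Of 19 cytokine and inflammation genes 2 rose and 1 fell. Socs2, a suppressor of growth hormone and cytokine signals, was 8.72, 8.79 and 9.04 against 7.81, 7.76 and 8.13, a difference of 0.95 ± 0.14. Nfkbia was the other, and Cxcl12, a chemokine that guides cells in the dentate gyrus, fell by 0.49. Without control 2 no gene of this list fell.

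Synaptic gene counts are given here beside the 5.28% risen and 4.31% fallen over all tested genes. Sv2b, a vesicle glycoprotein, was 12.51, 12.55 and 12.24 against 11.75, 10.95 and 11.87, a difference of 0.91 ± 0.19. Control 2 was much the lowest control. Of 34 vesicle genes 3 rose and 1 fell, the others being Syt1 (0.19) and Pclo (0.16), which serve calcium-triggered release and the active zone, and Synpr (-0.18), a vesicle protein of mossy fibres. None of 27 glutamate receptor and transporter genes rose and 3 fell: Grm2, a presynaptic receptor, by 0.55, the transporter Slc1a1 by 0.22 and the NMDA receptor subunit Grin2b by 0.14. Of 17 GABA genes 3 rose and 1 fell. Gabra5, a subunit of extrasynaptic receptors, was 12.59, 12.58 and 12.43 against 12.31, 11.73 and 12.00, a difference of 0.52 ± 0.10, and Gabrd, the extrasynaptic subunit of granule neurons, fell by 0.26. Gad2 and the scaffold Gphn (0.18) were the other rises. Potassium channel genes had 2 risen and 6 fallen of 49, among them Kcnk4 (-0.39), Kcna3 (-0.37), Kcng1 (-0.37), Kcnk1 (-0.35) and Kcns2 (-0.30) lower and Kcnip1 (0.49) and Kcnq5 (0.40) higher.

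Of 28 cyclic AMP genes 4 rose and 6 fell, where over all tested genes 5.28% rose and 4.31% fell. Adcy1, a calcium-stimulated adenylyl cyclase, was 12.45, 12.43 and 12.58 against 12.92, 13.07 and 12.81, a difference of -0.44 ± 0.06 (limma adjusted p = 0.00051). Pde1b (-0.39), Pde7b (-0.36), Prkar2b (-0.27) and Adcy2 (-0.25) fell too, while Pde4b (0.44), Adcy3 (0.39), Pde4d (0.24) and Rapgef4 (0.22) rose. Cyclases and phosphodiesterases, which make and break down the messenger, were thus found on each side. Of 14 metallothionein and zinc transporter genes 2 fell, Slc30a3 and Slc39a8 (-0.40), and none rose. Of 22 cholesterol genes 5 rose and none fell: Idi1 (0.72), Insig1 (0.47), Acat2 (0.26), Cyp51 (0.26) and Msmo1 (0.24). Idi1, an isoprenoid isomerase, was 9.03, 8.68 and 8.96 against 7.94, 8.15 and 8.41, with no overlap. Without agomelatine 1, control 1 or control 2, 2 of the 22 rose, and without agomelatine 2, 3 did. Cytoskeletal genes had 3 risen and 1 fallen of 28, with the axonal growth gene Gap43 (0.55) and the neurofilaments Nefm (0.46) and Nefh (0.41) higher and the spine protein Dbn1 (-0.25) lower.

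Lists of general cell functions lay near the background of 5.28% higher and 4.31% lower. Of 66 oxidative phosphorylation genes 4 rose and 1 fell, of 33 lysosomal genes 2 and 1, of 26 heat shock and unfolded protein genes 2 and 1, and of 68 ribosomal protein genes 2 and 3. The call of Rpl39 shows the weight of the control arrays: it was 12.66, 12.56 and 12.51 against 12.14, 12.22 and 12.13, a difference of 0.41 ± 0.06 that was 0.78 against first arrays and 0.05 against repeat arrays. Rpl41 rose by 0.36 on its brightest probe set, while its other probe sets differed by 0.15 and 0.18 and were not called. Of 13 perineuronal net genes Hapln2, a link protein of nodes of Ranvier, rose (0.38), and none of 13 collagen and basement membrane or 6 histone genes was called. The 1 blood cell gene tested, Hbb, differed by -0.10.

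Several of these list counts rested on single animals. Without control 2 the calls were 0 risen and 3 fallen for potassium channels, 1 and 2 for cyclic AMP genes, 2 and 0 for Wnt genes, 1 and 0 for vesicle genes, 1 and 0 for GABA genes and 1 and 0 for oxidative phosphorylation genes. No glutamate gene and no lysosomal gene was called without control 2, nor without agomelatine 1. Without agomelatine 1 the calls were 1 risen and 3 fallen for cyclic AMP genes and 1 and 1 for oxidative phosphorylation genes. Without control 1, 1 cyclic AMP, 1 GABA, 1 potassium channel and 1 heat shock gene rose. Without control 3 no lysosomal gene was called and 1 glutamate gene fell. Without agomelatine 2, 1 GABA gene rose and 3 cytoskeletal genes fell. Without agomelatine 3, 5 GABA, 5 ribosomal, 4 lysosomal and 2 glutamate genes rose, and 1 potassium channel gene rose and 3 fell. The fall of Dbn1 was lost without agomelatine 1 and without control 2, and heat shock genes had 1 rise without agomelatine 1 and none without control 2. Of ribosomal genes 1 fell without control 2. Of zinc genes 1 fell without agomelatine 1, agomelatine 3, control 1 or control 2. The call of Hapln2 was kept only without agomelatine 2, and that of Synpr only without agomelatine 3. Of Wnt genes 1 fell without agomelatine 1, agomelatine 3, control 1 or control 3.

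**Figure D5:**
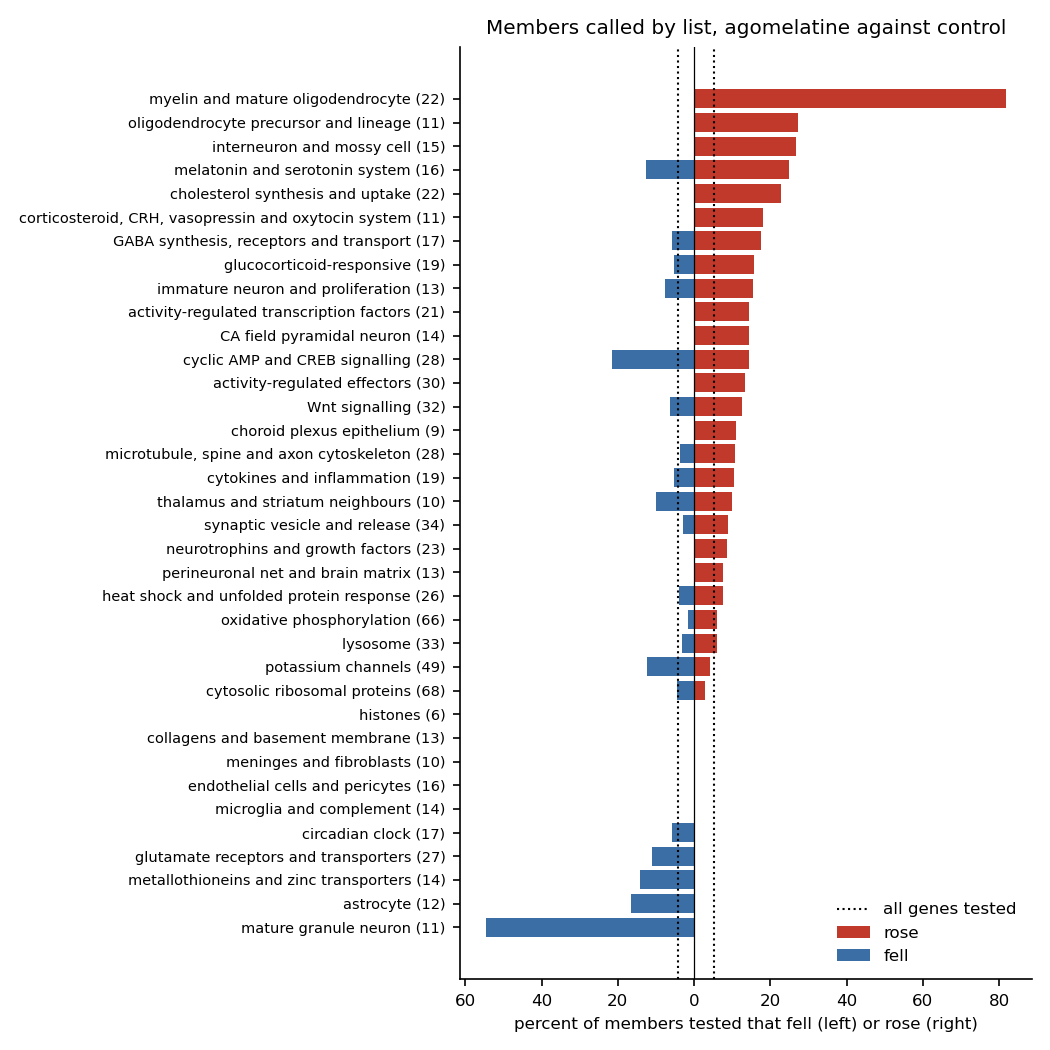
Percent of the tested members of each list (number tested in parentheses) that fell (left) or rose (right) in agomelatine against control, with dotted lines at the percent over all genes tested, 4.31% lower and 5.28% higher. Myelin genes, with 18 of 22 risen, and granule neuron genes, with 6 of 11 fallen, lie farthest from the dotted lines.

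Where the agomelatine animals stood relative to the other stressed animals was tested as well, and these comparisons share the agomelatine animals with the one above. Against stress alone 452 genes were higher (4.18%) and 711 lower (6.58%), 10.8% called in all. With the array difference as a covariate these 1163 calls became 132, with array weights 637 and with a random effect of animal 704. The array covariate cannot separate array effects from group effects here. Against the mean of the other 3 drugs 982 were higher (9.09%) and 1080 lower (10.0%), 19.1% called in all, a test in which the control animals cancel. These 2062 calls became 901 with the array difference as a covariate, 997 with array weights, 1330 with the choroid plexus score as covariate and 1332 without agomelatine 1. Against untreated animals, limma called 0 genes in stress, fluoxetine and tianeptine and 2 in imipramine, with 583, 528, 436 and 894 at an unadjusted p under 0.05. Opalin had means of 8.81 in control, 8.74 in stress, 9.91 in agomelatine, 8.74 in fluoxetine, 8.65 in imipramine and 8.69 in tianeptine. It was higher in agomelatine than in stress by 1.18 and than in the other drugs by 1.22 (limma adjusted p = 2.17e-07). Of the 22 myelin genes 18 were higher than in stress and 20 higher than with the other drugs. Sgk1 had means of 10.68 in control, 10.93 in stress, 11.45 in agomelatine and 10.87 to 10.98 in the other drug groups. Prox1 was lower than in the other drugs by 0.32 (limma adjusted p = 0.00454), and its difference from stress, -0.24, did not pass the test (limma adjusted p = 0.0915). Of the 11 granule neuron genes 5 were lower than in stress and 9 lower than with the other drugs. Of the 30 genes with the highest and lowest differences from control, 20 were called against stress and 27 against the other drugs.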

How the data were processed

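The authors deposited log2 values for each probe set. Per the submitters' processing notes, they came from RMA, with Expression Console 1.2 as software. RMA corrects background, normalises arrays to 1 distribution and summarises probes, and tends to shrink differences at low signal. No genome build enters the values used. Of 29214 probe sets, 15310 had 1 gene symbol in GEO's platform annotation, 323 had several and 13581 were unnamed here; 15279 matched RefSeq's GRCr8 gene table by gene number. Probe sets with 1 symbol and a mean at or above the 25th percentile (7.165) were kept, the brightest per gene, leaving 10804 genes. Among 424 genes with more than 1 such probe set, 0 had 1 probe set called higher and another called lower, and 41 had 1 called and another not.

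Tests used limma 3.58.1 (R 4.3.3): group means of all 18 animals were fitted together, leaving 12 residual degrees of freedom, and eBayes moderated the variances along a trend. Adjusted p-values come from this fit, except where an animal is said to be left out, fitted again without it, and for another probe set of a gene, from the fit of every probe set. On simulated data for agomelatine against control, with 10804 genes and 50 changed at each size, it recovered 15, 43, 50 and 50 at log2 sizes of 0.3, 0.5, 0.8 and 1.2, with 13 false calls. By the median SD, the agomelatine animals spread more than the other groups. The shared spread can thus make their standard errors and adjusted p-values too small. Arrays have no read depth, so the number of animals limits the precision.

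The members and gene lists were chosen with earlier results of these data known. Genes are named as the 15 highest and 15 lowest called differences without overlap, up to 5 called members per list and direction, up to 3 other members by size, and a panel; other list members are named to complete a count. The motif families and the promoters shown were chosen after the differences were seen. Alternatives covered the control arrays, the animals in the fit, spread, filter, scaling, probe set rule, threshold, replicate block, covariates and each animal left out. Figures were drawn with matplotlib 3.10.9 in Python 3.11.15.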

Additional observations from a re-analysis of the deposited data

Results flagged for a closer look

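In limma's test of the difference between agomelatine against control and the mean of the other 3 drugs against control, in which the control mean cancels, 982 genes were higher and 1080 lower with agomelatine. These 2062 calls became 901 with the array difference as a covariate, 997 with array weights and 1330 with the choroid plexus score as covariate. The agomelatine arrays lay at 0.62 to 0.832 on the scale from first to repeat control arrays and the other stressed animals at -0.145 to 0.406. The part of this in the count was not tested beyond the fit with the array difference as a covariate. That fit cannot separate array effects from effects of the agomelatine group. The dose was 40 mg/kg for agomelatine and 10 mg/kg for the others, and the vehicle differed.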

How the results depend on the processing

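Of 244 genes chosen by the naming rule, 16 changed sign under at least 1 alternative, none of them among the 131 called; Bdnf was -0.02 without control 1. The 570 higher and 466 lower genes became, in that order, 215 and 107 in the fit of the 6 animals alone, 321 and 205 with array weights, 280 and 268 after adjustment for the choroid plexus score and 883 and 833 at an adjusted p under 0.1. With the array difference as a covariate the counts were 819 and 451. In that fit 26 of the 131 called genes of the naming rule lost their call. Of these 131, 48 lost it with the choroid plexus score as covariate, 44 with array weights and 72 without control 2. The lower count was 1021 against first and 226 against repeat control arrays alone, where the higher count was 843 and 444. Leaving out 1 animal at a time gave 193 to 783 higher and 85 to 627 lower genes. The cause of these shifts was not tested. Quantile normalisation once more gave 586 higher and 635 lower genes.

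The 1163 genes called against stress became 704 when the 21 arrays were fitted with a random effect of animal, 637 with array weights, 132 with the array difference as a covariate and 1957 at an adjusted p under 0.1. The 2062 called against the other 3 drugs became 997 with array weights, 1330 after adjustment for the choroid plexus score, 901 after adjustment for the array difference, and 1332 to 2046 when 1 animal was left out. The 0 genes called between repeat and first arrays became 821 with the filter at the 50th percentile and 0 to 189 when 1 control animal was left out; 2327 had an unadjusted p under 0.05.

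The labels state no link between same-numbered agomelatine and control animals. Their deviations correlated at -0.055, -0.30 and -0.052, and those of differently numbered animals at -0.215 to 0.315. With so few animals these values cannot show whether the numbers are linked. With the replicate block the counts were 520 higher and 404 lower.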
